A study of Homo sapiens with 58 samples.

Results

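The regulatory elements examined here lie around the 8 MSX and DLX homeobox genes MSX1, MSX2, DLX1, DLX2, DLX3, DLX4, DLX5 and DLX6. A regulatory element (RE) is a row of the count table, an interval of open chromatin on the hg38 genome. An RE was taken as a member when its midpoint lay inside the body of one of these genes or within 100000 bp of one of their GENCODE v44 start sites, which gave 121 of the 151457 REs in all. They fall into 5 loci, because the DLX genes sit in pairs, with 28 REs around MSX1, 16 around MSX2, 26 around DLX1 and DLX2, 36 around DLX3 and DLX4, and 15 around DLX5 and DLX6. Of the 121, 30 lay within 1000 bp of an annotated start of any gene (promoter REs), and 36 overlapped an exon, 26 lay in an intron and 59 were intergenic. REs are named here by locus and by their order along the chromosome, so that MSX2_11 is the eleventh RE of the MSX2 locus.

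Chromatin accessibility was measured by ATAC-seq, in which a transposase cuts and tags open DNA, in 58 samples of cranial neural crest cells (CNCCs) at passage 4 derived from human embryonic stem cells of the H9 line. In the tagged cells, from the edited clones S9CC13 and S9CC47, SOX9 carries a degradation tag (FKBP12-F36V, with mNeonGreen and V5), and the molecule dTAGV-1 triggers the removal of the tagged protein. The tagged cells received 0, 0.5, 1.6, 5, 16 or 500 nM dTAGV-1 for 48 h, with 7 samples per dose. These came from 4 differentiations of S9CC13 and 3 of S9CC47, and differentiation R6 is among both. The labels give the SOX9 level as 100, 77.9, 51.7, 25.8, 8.14 and 0.95% in the order of the doses. Tagged S9CC13 cells and untagged wild-type (WT) cells were also sampled after vehicle for 24 h and after 500 nM for 3 and 24 h. WT cells were sampled after 0 and 500 nM for 48 h as well, with 2 samples in each of these groups. All groups were grown in the same medium, which contained BMP2 and the WNT pathway activator CHIR-99021, and the 0 nM and vehicle samples received DMSO. The tagged lines are 2 clones, and an ATAC-seq count cannot show whether SOX9 was degraded in a given sample.

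MSX and DLX genes encode homeodomain transcription factors that pattern the face. MSX1 and MSX2 respond to BMP signals and are needed for teeth, palate and skull, and MSX proteins mostly repress transcription and hold progenitors undifferentiated. DLX1 and DLX2 act in both the upper and lower jaw, whereas DLX5 and DLX6 act in the lower jaw under endothelin signals, and DLX3 and DLX4 act in its most distal part and in teeth and skin. Each DLX pair is transcribed towards a shared intergenic stretch, where enhancers used by both genes of a pair are known. SOX9, the factor lowered here, is a high-mobility-group protein that opens chromatin at neural crest enhancers and later drives cartilage formation.

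The sequences shown are those of the REs that moved most, the largest decrease in each of the 3 loci with a decrease and, for comparison, the largest increase around MSX1 and MSX2. Each is the 300 bases of the hg38 plus strand centred on the RE, with SOX cores (ACAAAG or ACAATG, on either strand) in capitals. DLX3-DLX4_6 (chr17:49910475-49910774, intergenic) lies 58 kb before the start of DLX4, DLX1-DLX2_26 (chr2:172181872-172182171, in an intron of the non-coding gene ENSG00000232555) 79.1 kb before DLX2, and MSX1_9 (chr4:4803282-4803581, intergenic) 56.2 kb before MSX1. MSX1_10 (chr4:4818525-4818824, intergenic) lies 41.0 kb before MSX1 and MSX2_11 (chr5:174732078-174732377, intergenic) 7.6 kb past the start of MSX2, beyond the end of the gene.
DLX3-DLX4_6: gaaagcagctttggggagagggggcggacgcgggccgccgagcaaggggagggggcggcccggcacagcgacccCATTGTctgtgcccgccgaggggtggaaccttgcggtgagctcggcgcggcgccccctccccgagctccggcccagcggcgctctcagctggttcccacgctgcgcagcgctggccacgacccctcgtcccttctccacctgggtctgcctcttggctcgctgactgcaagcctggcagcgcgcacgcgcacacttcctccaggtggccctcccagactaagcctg
DLX1-DLX2_26: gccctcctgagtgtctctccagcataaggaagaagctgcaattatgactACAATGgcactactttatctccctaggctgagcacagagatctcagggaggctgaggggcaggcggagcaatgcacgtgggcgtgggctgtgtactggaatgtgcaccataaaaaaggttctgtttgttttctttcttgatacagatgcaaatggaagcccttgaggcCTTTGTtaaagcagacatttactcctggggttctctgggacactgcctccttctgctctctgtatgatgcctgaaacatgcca
MSX1_9: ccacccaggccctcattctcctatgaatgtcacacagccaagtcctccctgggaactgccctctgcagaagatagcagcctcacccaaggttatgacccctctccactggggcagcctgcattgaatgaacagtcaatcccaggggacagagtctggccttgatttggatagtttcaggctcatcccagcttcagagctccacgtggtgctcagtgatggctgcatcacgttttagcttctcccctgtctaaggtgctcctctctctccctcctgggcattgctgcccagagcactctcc
MSX1_10: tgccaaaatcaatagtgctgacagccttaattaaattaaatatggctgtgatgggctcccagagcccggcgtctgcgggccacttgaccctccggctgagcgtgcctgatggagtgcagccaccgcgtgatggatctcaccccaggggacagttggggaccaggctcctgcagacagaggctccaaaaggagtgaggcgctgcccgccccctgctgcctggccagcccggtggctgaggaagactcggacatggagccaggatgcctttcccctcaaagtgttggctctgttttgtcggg
MSX2_11: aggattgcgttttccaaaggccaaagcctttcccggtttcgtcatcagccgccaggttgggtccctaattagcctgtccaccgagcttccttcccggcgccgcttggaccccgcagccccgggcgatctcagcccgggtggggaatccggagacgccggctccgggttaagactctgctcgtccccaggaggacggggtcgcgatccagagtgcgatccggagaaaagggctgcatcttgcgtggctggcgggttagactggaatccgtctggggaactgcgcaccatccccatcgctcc
DLX3-DLX4_6 held 1 SOX core in a stretch of 72.3% G and C, and DLX1-DLX2_26 held 2, on opposite strands, starting at bases 50 and 218 of the stretch. MSX1_9, MSX1_10 and MSX2_11 held none in these 300 bases. A homeodomain core (TAATTA or TAATTG, on either strand) stood once in the falling DLX1-DLX2_26 and once each in the rising MSX1_10 and MSX2_11.

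Libraries held between 22905782 and 81040023 counts, and a member RE had a mean count per library between 36.0 and 2800 with a median of 242, against a median of 125 over all REs. Levels are given as CPM, the count scaled by the normalized library size in the usual way, and as CPM per kb of the RE where levels of different REs are compared. All 9 CNCC markers listed (TWIST1, TFAP2A, TFAP2B, NR2F1, NR2F2, PRRX1, ALX1, ALX4 and SNAI2) had a promoter RE, at percentiles 79.2 to 98.9 of all promoter REs at 0 nM, whereas of the 5 pluripotency markers POU5F1 stood at 11.0, DPPA4 at 38.7 and LIN28A at 81.0, and NANOG and ZFP42 had no promoter RE. The 5 neural markers stood at 23.2 to 80.6 and the 3 of muscle and heart at 34.0 to 70.9. Of the endothelial, blood and epithelial markers, CDH5 stood at 68.0, EPCAM at 69.9 and CDH1 at 22.3, and PECAM1, PTPRC and KRT5 had no promoter RE. Glia and melanocyte markers were mixed, with SOX10 at 16.4 but MITF at 89.0 and PMEL at 100.0. The share of a library's counts that fell in promoter REs was highest in replicate S9CC13_R10 at every dose (57.2 to 60.0%), and the 5 nM library of S9CC47_R6 had 56.9% against 48.4 to 53.6% in that replicate's other libraries. In a bulk sample, fewer cells with an open site and a less open site in each cell cannot be told apart.

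At full SOX9 dosage the promoters of the 8 genes were open to different degrees. The order of the mean level at 0 nM was DLX1, DLX2, MSX1, DLX3, MSX2, DLX6, DLX5 and DLX4. The DLX1 promoter RE (DLX1-DLX2_12) had between 37.9 and 64.0 CPM per kb in the 7 samples, with a mean of 51.9 ± 8.77 (SD, n = 7), which put it at percentile 90.0 of all promoter REs. DLX2 followed with 41.5 ± 10.1 and MSX1 with 31.2 ± 13.4 CPM per kb, and DLX3 had 23.4 ± 3.91 and MSX2 17.9 ± 4.03. The lowest were DLX6 with 15.6 ± 4.69, DLX5 with 13.3 ± 1.89 and DLX4 with 11.8 ± 2.75, the last at percentile 50.8. DLX1 was above DLX2, DLX2 above MSX1, and MSX2 above DLX6 in 7 of 7 samples, whereas MSX1 was above DLX3 and DLX6 above DLX5 in 3 of 7, so those neighbours did not separate beyond the spread between samples.

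The MSX1 promoter RE varied most among the samples at 0 nM, from 16.5 to 52.9 CPM per kb. Across the 42 tagged samples at 48 h, after centring each differentiation, the log2 CPM at the 8 promoters correlated with one another at Pearson r between 0.128 (DLX5 with DLX6) and 0.861 (MSX1 with DLX6). These samples share their clones and differentiations, and the promoter share of the library differs between them. The genes whose promoter REs tracked a member most closely, out of 20897 genes, were TUSC3, LEPROTL1 and FANCA for MSX1 (r 0.957, 0.957 and 0.949), PDE8A, VIM-AS1 and RUNDC3B for MSX2 (0.901, 0.900 and 0.899), HMX1, IER5L-AS1 and SH3GL3 for DLX1 (0.832, 0.829 and 0.828), and THBS3, STRIP2 and GGA1 for DLX2 (0.896, 0.893 and 0.892). For DLX3 they were YIPF3, LINC01819 and ANKRD35 (0.875, 0.872 and 0.863), for DLX4 KIF9, DNAJC7 and AJUBA-DT (0.866, 0.862 and 0.860), for DLX5 AMPD2, GJA1 and CXXC1 (0.777, 0.776 and 0.768), and for DLX6 LRRC32, CNN2 and SMCHD1 (0.918, 0.911 and 0.909). No other DLX or MSX gene was among the 3 closest to any member.

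**Figure D1:**
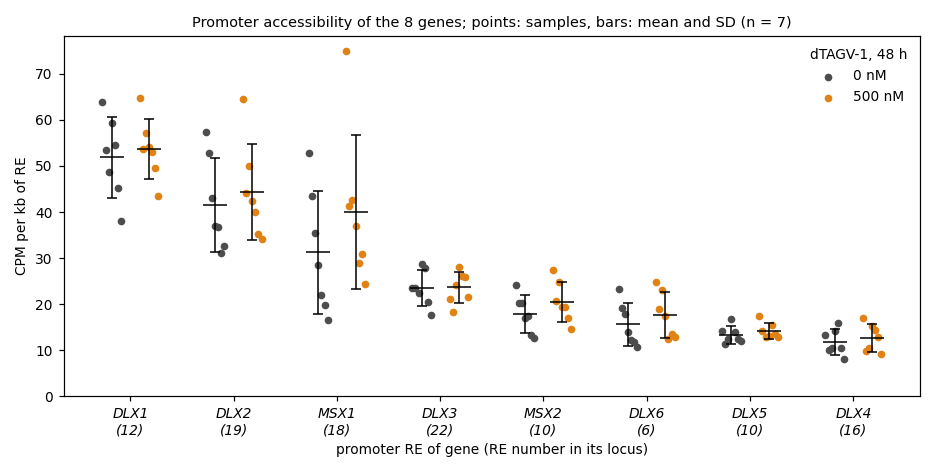
Accessibility at the promoter RE of each gene, in CPM per kb of RE, in the 7 tagged samples at 0 nM (grey) and the 7 at 500 nM dTAGV-1 (orange) after 48 h; each point is a sample and the bars give the mean and SD. The groups overlap at all 8 promoters, and the highest MSX1 point at 500 nM is replicate S9CC13_R10.

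Removing SOX9 for 48 h changed 45 of the 121 member REs, with 14 lower and 31 higher at 500 nM than at 0 nM (edgeR quasi-likelihood test with differentiation as a covariate, Benjamini-Hochberg adjusted p under 0.05 over all REs). Over all 151457 REs, 13.9% were lower and 10.2% higher, so the members held a share of decreases (11.6%) near the background and a share of increases (25.6%) above it. The median log2 fold change was 0.081 over the members and 0.018 over all REs. By gene family, around MSX1 and MSX2, 23 of 44 REs rose and 2 fell, with a median of 0.247, whereas around the DLX genes 8 of 77 rose and 12 fell, with a median of 0.009. Away from promoters 29 of 91 member REs rose and 12 fell, while of the 30 promoter REs 2 rose and 2 fell. The shares among all promoter REs and all other REs of the series were not counted. This contrast is thus not shown to be particular to the members. DESeq2 called 38 of the 45 and no other member. With replicates as blocks 15 were lower and 34 higher, against 16.8 and 13.9% of all REs in that fit, and all 45 calls were kept. Leaving out 1 replicate at a time, 35 of the 45 calls were kept in every case. Without S9CC13_R10, the replicate with the highest promoter share, DLX1-DLX2_2, DLX1-DLX2_17, MSX1_9, MSX2_2, MSX2_5 and MSX2_13 did not pass (adjusted p = 0.124, 0.0747, 0.0868, 0.0983, 0.139 and 0.0705). Without S9CC47_R6, MSX1_4, MSX1_13 and MSX2_5 did not pass (adjusted p = 0.0751, 0.0529 and 0.075), and MSX1_6 and MSX2_10 did (adjusted p = 0.0397 and 0.0315). REs outside the naming rule (the promoter of each gene, the extremes and most accessible RE of each locus, the REs between paired genes and the 5 largest changes at 3 h) were picked for description after their values were seen.

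**Figure D2:**
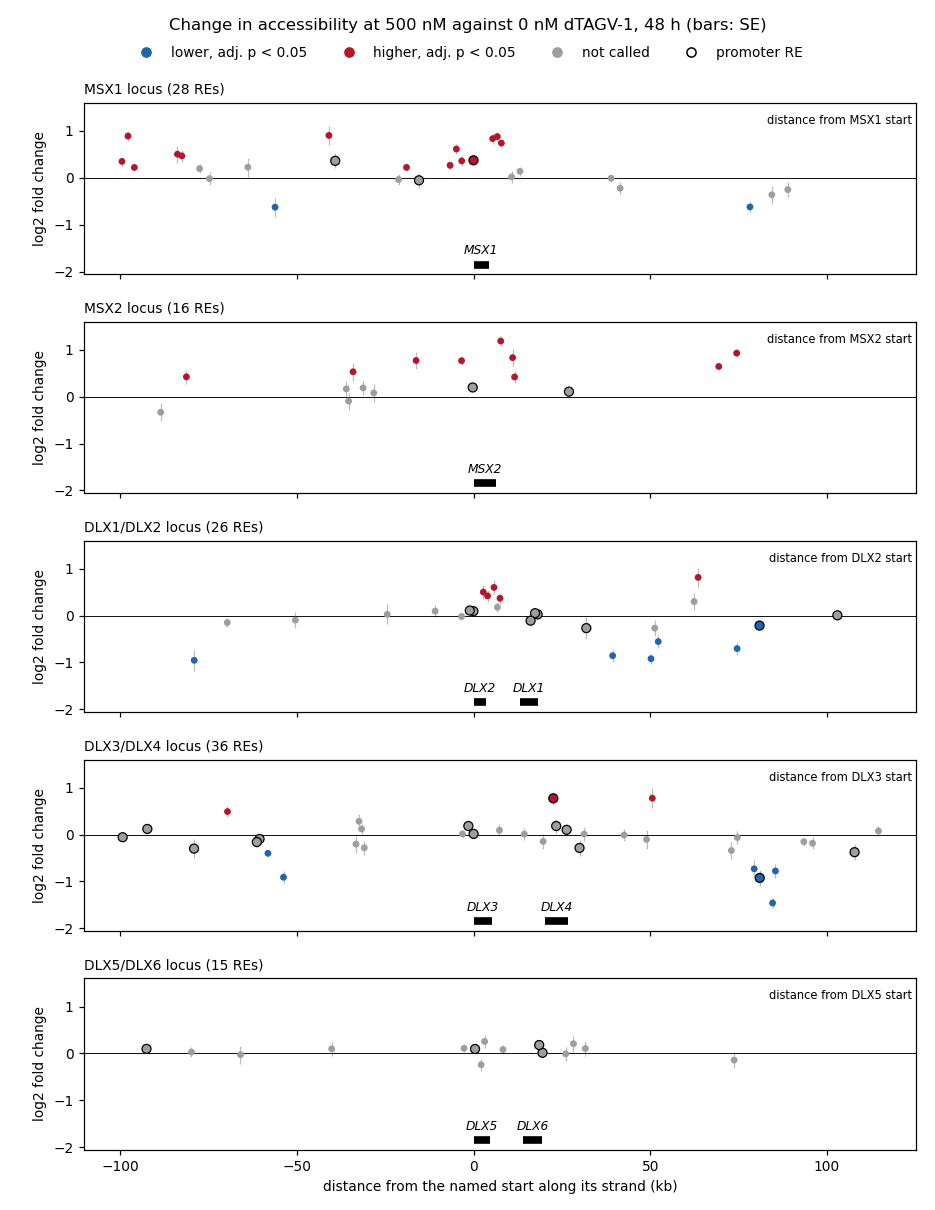
log2 fold change in accessibility at 500 nM against 0 nM dTAGV-1 after 48 h for each of the 121 member REs, against distance in kb from the start of one gene of the locus along its strand; red points rose, blue points fell, grey points were not called, black rings mark promoter REs, vertical bars are standard errors and black blocks are gene bodies. Red points dominate around MSX1 and MSX2, blue points lie away from the DLX1, DLX2, DLX3 and DLX4 starts, and no point is coloured in the DLX5/DLX6 panel.

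Around MSX1, 14 of 28 REs rose and 2 fell, with a median log2 fold change of 0.224. The increases included 3 neighbouring REs just beyond the 3′ end of the gene, MSX1_19, MSX1_20 and MSX1_21, at 5.4, 6.7 and 7.8 kb past its start. MSX1_20 (chr4:4865665-4867031) had between 11.8 and 36.7 CPM at 0 nM, with a median of 25.6, and between 28.9 and 53.4 at 500 nM, with a median of 50.4. The ranges overlapped, and the RE was higher at 500 nM in 7 of 7 replicates, with a log2 change of 0.88 ± 0.09 (SE, adjusted p = 3.32e-08). MSX1_19 rose by 0.84 ± 0.12 and MSX1_21 by 0.74 ± 0.08 on the log2 scale. MSX1_21 reached 99.4 CPM in one sample at 500 nM, against a highest value of 74.1 at 0 nM.

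Upstream of MSX1 the increases lay both close to the gene and in introns of the non-coding gene STX18-AS1, far from it. MSX1_16, 4.9 kb before the start, rose by 0.61 ± 0.11, and MSX1_15, MSX1_17 and MSX1_13 by 0.27 ± 0.08, 0.36 ± 0.11 and 0.22 ± 0.08. The last of these was lost without S9CC13_R13, S9CC47_R5, S9CC47_R6 or S9CC47_R8 (adjusted p = 0.0988, 0.0593, 0.0529 and 0.0532). At 97.9 kb before the start, MSX1_2 had between 4.75 and 8.39 CPM at 0 nM, with a median of 6.66, and between 8.81 and 16.5 at 500 nM, with a median of 13. The groups did not overlap there, and the fold change was 0.89 ± 0.11 (adjusted p = 1.21e-06). Its neighbour MSX1_3, the most accessible RE of the locus with a median of 56.2 CPM at 0 nM, rose by 0.22 ± 0.06 to a median of 67.8 (adjusted p = 0.00408). The largest fold change of the locus, in MSX1_10, was 0.90 ± 0.21, but this RE was nearly closed, with between 0.289 and 1.27 CPM at 0 nM and between 0.856 and 2.69 at 500 nM.

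The MSX1 promoter RE (MSX1_18, chr4:4859355-4859855, overlapping the first exon) was the one promoter RE of the 8 genes, taken as the most accessible RE at each gene's starts, that passed the test at 500 nM. It had between 8.29 and 26.5 CPM at 0 nM, with a median of 14.3, and between 12.2 and 37.5 at 500 nM, with a median of 18.5. The ranges overlapped widely, 6 of 7 replicates rose, and the log2 fold change was 0.37 ± 0.09 (adjusted p = 0.00261). In the same 6 replicates the share of a library's counts in promoter REs rose too, with a median over all 7 of 50.4% at 0 nM and 53.6% at 500 nM. In S9CC13_R13, where MSX1_18 went from 21.8 to 20.7 CPM, that share went from 56.0 to 55.5%. The part of the share in this change was not tested. The MSX2 promoter (MSX2_10) gave 0.20 ± 0.07 (adjusted p = 0.0513), which passed with replicates as blocks (adjusted p = 0.0125). Leaving out S9CC13_R13, S9CC13_R6 or S9CC47_R6 gave adjusted p values of 0.0303, 0.0283 and 0.0315 for it.

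The decreases around MSX1 were MSX1_26, 78.2 kb past the start, and MSX1_9. MSX1_26 had between 4.18 and 6.68 CPM at 0 nM, with a median of 5.29, and between 2.29 and 4.13 at 500 nM, with a median of 3.88. The groups did not overlap, and the log2 fold change was -0.62 ± 0.11 (adjusted p = 0.000154). MSX1_9 was at a median of 1.52 CPM at 0 nM and 1.23 at 500 nM, a fold change of -0.63 ± 0.20 (adjusted p = 0.0228). This call was lost without S9CC13_R10 (adjusted p = 0.0868) or without S9CC47_R5 (adjusted p = 0.0592).

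Around MSX2, 9 of 16 REs rose and none fell, with a median log2 fold change of 0.423. MSX2_11, the RE just beyond the 3′ end of the gene whose sequence is printed above, had the largest increase of all members. It had between 2.63 and 8.33 CPM at 0 nM, with a median of 4.05, and between 6.53 and 17.9 at 500 nM, with a median of 10.9. Every replicate rose, although the ranges overlapped, and the log2 fold change was 1.19 ± 0.11 (adjusted p = 4.18e-09). MSX2_9, 3.4 kb before the start, rose by 0.77 ± 0.09, and MSX2_12 and MSX2_13, at 11.0 and 11.6 kb past it, by 0.83 ± 0.18 and 0.42 ± 0.13, the latter lost without S9CC13_R10 or S9CC47_R5 (adjusted p = 0.0705 and 0.0878). At 69.4 and 74.4 kb past the start, in an intron of the non-coding gene ENSG00000251670, MSX2_15 rose by 0.65 ± 0.07 and MSX2_16 by 0.93 ± 0.09. MSX2_16 went from a median of 10.7 CPM at 0 nM (7.94 to 15.0) to 22.1 at 500 nM (13.5 to 26.8).

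The DLX1/DLX2 locus held both directions, with 6 of 26 REs lower (23.1%) and 5 higher (19.2%), against 13.9 and 10.2% of all REs. The decreases lay outside the gene pair, 5 of them in the neighbouring gene METAP1D and 1, DLX1-DLX2_26, on the other side. DLX1-DLX2_8 (chr2:172052291-172053144, in an intron of METAP1D 32.0 kb before the DLX1 start) had between 8.38 and 14.9 CPM at 0 nM, with a median of 12.4, and between 5.30 and 7.43 at 500 nM, with a median of 6.57. The groups did not overlap, and the log2 fold change was -0.92 ± 0.11 (adjusted p = 3.02e-07). DLX1-DLX2_9, which overlaps an exon of METAP1D 21.2 kb before the start, went from a median of 6.59 to 3.05 CPM, a fold change of -0.85 ± 0.13, and DLX1-DLX2_3 fell by 0.70 on the log2 scale. DLX1-DLX2_26 had the largest fold change, -0.95 ± 0.22, from a median of 1.34 CPM (1.03 to 1.77) to 0.676 (0.291 to 1.11), with overlapping ranges.

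The largest increase of the locus was in a nearly closed RE of METAP1D, DLX1-DLX2_4, which had between 0.396 and 1.14 CPM at 0 nM and between 0.780 and 2.14 at 500 nM, with a log2 change of 0.82 ± 0.20 (adjusted p = 0.00412). Of the other increases, all 4 lay between the bodies of DLX1 and DLX2 or in the last part of DLX2, which is the stretch both genes share. DLX1-DLX2_16 (chr2:172096719-172097595, intergenic, 5.7 kb past the DLX2 start) had between 6.27 and 20.9 CPM at 0 nM, with a median of 17.7, and between 13.3 and 28.8 at 500 nM, with a median of 25.2. Every replicate rose, the ranges overlapped, and the log2 fold change was 0.60 ± 0.15 (adjusted p = 0.00408). DLX1-DLX2_14 rose by 0.37 ± 0.12, DLX1-DLX2_17 by 0.42 ± 0.14 and DLX1-DLX2_18, in an exon of DLX2, by 0.50 ± 0.16, while DLX1-DLX2_15, which lies among them, gave 0.18 and did not pass. DESeq2 gave adjusted p values of 0.143, 0.0697 and 0.181 for DLX1-DLX2_14, DLX1-DLX2_16 and DLX1-DLX2_17, the first was lost without S9CC47_R8 (adjusted p = 0.139), and the last without S9CC13_R10, S9CC13_R14 or S9CC47_R8 (adjusted p = 0.0747, 0.0533 and 0.0861). DLX1-DLX2_18 was lost without S9CC47_R8 (adjusted p = 0.0994).

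Neither promoter of this pair passed the test. The DLX1 promoter RE had a median of 43.9 CPM at 0 nM and 44.1 at 500 nM, with a log2 change of 0.05 ± 0.06 (adjusted p = 0.617), and the DLX2 promoter RE (DLX1-DLX2_19) gave 0.09 ± 0.07 (adjusted p = 0.406).

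Around DLX3 and DLX4, 6 of 36 REs fell (16.7%) and 3 rose (8.33%), against 13.9 and 10.2% of all REs. The median log2 fold change was -0.078. The deepest decrease of all members was in DLX3-DLX4_6, the G and C rich sequence with 1 SOX core. It had between 6.89 and 14.8 CPM at 0 nM, with a median of 10.7, and between 2.59 and 5.35 at 500 nM, with a median of 4.10. The groups did not overlap, and the log2 fold change was -1.46 ± 0.11 (adjusted p = 1.27e-10). Its neighbours within a few kb fell with it, DLX3-DLX4_5 by 0.78, DLX3-DLX4_7 by 0.93 and DLX3-DLX4_8 by 0.73 on the log2 scale, so 4 of the 6 decreases of the locus formed 1 cluster between 52.8 and 58.8 kb before the DLX4 start. The other decreases were on the DLX3 side, DLX3-DLX4_29 at 53.8 kb before the DLX3 start with -0.91 ± 0.13 and DLX3-DLX4_30, in an exon of the non-coding gene PICART1, with -0.40 ± 0.07. DLX3-DLX4_30 is the most accessible RE of the locus, with a median of 27.7 CPM at 0 nM and 23.4 at 500 nM. With replicates as blocks DLX3-DLX4_2, at a start of the non-coding gene ENSG00000248954, was lower as well, with -0.38 ± 0.13 (adjusted p = 0.03, against 0.111 with differentiation as the covariate).

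Of the DLX4 promoter REs, one inside the gene body passed the test and the one at its first start did not, a difference that was not tested. DLX3-DLX4_18 (chr17:49972445-49972945), which overlaps an exon and lies within 1000 bp of an internal annotated start of DLX4, went from a median of 5.06 CPM (2.22 to 6.25) to 8.24 (4.38 to 9.99), in 7 of 7 replicates, with a log2 change of 0.77 ± 0.14 (adjusted p = 0.000174). The promoter RE DLX3-DLX4_16 gave 0.10 ± 0.09 (adjusted p = 0.494), and the DLX3 promoter RE (DLX3-DLX4_22) 0.01 ± 0.09 (adjusted p = 0.941), whose sign turned without S9CC47_R6 or S9CC47_R8 (-0.019 and -0.032). The largest fold change upwards in the locus, 0.78 ± 0.22 (adjusted p = 0.00946), was in DLX3-DLX4_11, 23.9 kb before the DLX4 start, at a median of 1.39 CPM at 0 nM and 2.39 at 500 nM, with widely overlapping ranges. The third RE that rose, DLX3-DLX4_33, overlaps an exon of the integrin gene ITGA3 and gave 0.49 ± 0.11. None of the 3 REs between DLX4 and DLX3 (DLX3-DLX4_19, DLX3-DLX4_20 and DLX3-DLX4_21) was called, with log2 fold changes of -0.15, 0.01 and 0.09.

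The locus of DLX5 and DLX6, the lower jaw pair, had no RE called at 500 nM among its 15 with differentiation as the covariate. Over all REs 13.9% were lower and 10.2% higher in that fit. The fold changes lay between -0.24 and 0.26 on the log2 scale. With replicates as blocks 2 of the 15 were higher, against 16.8% of all REs lower and 13.9% higher. The DLX5 promoter RE (DLX5-DLX6_10) had between 10.1 and 15.1 CPM at 0 nM and between 11.5 and 15.7 at 500 nM, with a fold change of 0.10 ± 0.09 (adjusted p = 0.503). The DLX6 promoter RE (DLX5-DLX6_6) gave 0.18 ± 0.08 (adjusted p = 0.124), which passed with replicates as blocks (adjusted p = 0.0438). The other was DLX5-DLX6_8, in an exon of DLX5, with 0.25 ± 0.10 in that fit (adjusted p = 0.0481, against 0.166). The 1 intergenic RE between the genes, DLX5-DLX6_7, was at a median of 11.2 CPM at 0 nM and 11.1 at 500 nM. The most accessible RE of the locus, DLX5-DLX6_15 at the promoter of SDHAF3, gave 0.10 ± 0.06 (adjusted p = 0.246). A test that is not passed does not show that the locus was unaffected.

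The edge of the window is arbitrary. The outermost member on the left of MSX1, 99.6 kb from its start, had a log2 fold change of 0.35, and the next RE outside, at 104.2 kb, had 0.08. Just outside the DLX5/DLX6 window, at 101.4 kb, an RE had -0.782, against -0.143 for the outermost member on that side.

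Fewer member REs passed the test at the intermediate doses, and falling REs of the DLX loci and rising REs of the MSX loci made up most of the calls. At 16 nM (8.14% SOX9), 13 members were lower and 13 higher, against 9.12 and 7.12% of all REs, and all 13 that rose were around MSX1 and MSX2. With replicates as blocks the counts at 16 nM were 17 and 21, against 14 and 12.1% of all REs in that fit, and increases were then called in DLX loci too. Those added were DLX1-DLX2_4, DLX3-DLX4_11, DLX3-DLX4_18 and DLX3-DLX4_33 (log2 changes of 0.51, 0.56, 0.30 and 0.30, adjusted p = 0.0425, 0.00647, 0.0118 and 0.0138) and, around MSX1, MSX1_1, MSX1_10, MSX1_17 and MSX1_24 (0.28, 0.57, 0.25 and 0.14, adjusted p = 0.000824, 0.0221, 0.00885 and 0.0361). The decreases added were DLX1-DLX2_11, DLX3-DLX4_25, DLX3-DLX4_30 and DLX3-DLX4_32 (-0.21, -0.36, -0.15 and -0.24, adjusted p = 0.00595, 0.0393, 0.0497 and 0.0221).

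At 5 nM (25.8% SOX9), 5 were lower, all in DLX loci, and 2 higher (MSX1_5 and MSX2_11), against 4.24 and 1.08% of all REs. With replicates as blocks these counts were 6 and 10, against 5.74 and 2.79% of all REs in that fit, with DLX3-DLX4_5 added to the decreases, and MSX1_1, MSX1_16, MSX1_19, MSX1_20, MSX1_21, MSX2_2, MSX2_9 and DLX3-DLX4_18 to the increases. The 5 nM count depended on single libraries. It was 21 without S9CC47_R6 and 12 without S9CC13_R6, but 2 without S9CC13_R10 or S9CC47_R5, and 3 without S9CC13_R14 or S9CC47_R8.

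At 1.6 nM (51.7% SOX9) no member was called, against 0.0383% of all REs lower and 0% higher, and 5 members had an unadjusted p under 0.05 (DESeq2 also called none). With replicates as blocks 2 were lower, DLX1-DLX2_8 by 0.25 and DLX1-DLX2_9 by 0.33 on the log2 scale (adjusted p = 0.0414 and 0.0395), against 0.941% of all REs lower in that fit. At 0.5 nM (77.9% SOX9) no member and 0% of all REs were called, 4 members had an unadjusted p under 0.05, DESeq2 called none, and 2 members were called without S9CC13_R6.

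The shape of the response was described by how much of the 500 nM change had been reached at a given dose, averaged over REs within a replicate on the log2 scale. For the 12 falling DLX REs this share was 16.6 ± 11.7% (SD, n = 7) at 51.7% SOX9, 48.6 ± 7.8% at 25.8% and 77.3 ± 13.3% at 8.14%. For the 23 rising MSX REs it was 3.8 ± 8.3, 38.7 ± 12 and 63.8 ± 20.3% at the same doses. A response in a straight line with SOX9 would have reached 48.8, 74.9 and 92.7%. The mean of both groups of REs thus lay below the line at each of these doses. These REs were chosen by their change at 500 nM, which is also the divisor of the share. That choice can lower the shares by itself, so they describe the response and do not test its shape. The 8 rising DLX REs were at 0.4 ± 41.0, 20.1 ± 34.3 and 44.3 ± 31.3%, with a spread between replicates larger than the share itself at 51.7 and 25.8% SOX9 and smaller at 8.14%.

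A Hill curve with its ends fixed at the mean levels at 0 and 500 nM gave the SOX9 level at the midpoint of the change (ED50) for each of the 45 called REs. Both ends rest on the samples by which these REs were chosen. For the 14 falling REs the median ED50 was 26.5% SOX9, from 6.76 for DLX3-DLX4_30 to 61.3 for DLX1-DLX2_26. For the 31 rising REs it was 9.60%, from 1.93 for the MSX1 promoter to 58.7 for MSX1_5. MSX1_5 was higher at 16 than at 500 nM in every replicate except S9CC13_R13 and S9CC13_R14, with 4.78 against 4.07 CPM in S9CC13_R6. A curve that ends at the 500 nM mean cannot follow this, so its ED50 is not a clear midpoint. The lowest value of each group lies between 8.14 and 0.95% SOX9, where no level was measured. So do those of MSX2_5, MSX2_12, MSX2_13, DLX3-DLX4_18 and MSX1_21 (3.86, 5.01, 5.51, 6.84 and 7.97%). Within the DLX3/DLX4 locus DLX3-DLX4_6 gave 30.6% (28.3 to 36.4 when 1 replicate was left out) and its neighbour DLX3-DLX4_7 13.1% (11.6 to 15.3). DLX1-DLX2_8 and DLX1-DLX2_9 gave 39.9 and 37.6%, above the other falling REs except DLX1-DLX2_26. MSX2_11 gave 9.60% (7.80 to 11.4), MSX1_20 12.2% (10.5 to 14.4), and the 4 intergenic or DLX2-exon REs of the DLX1/DLX2 locus 4.10 to 5.89%, which lies between the lowest SOX9 levels measured, 8.14 and 0.95%, where the curve has no point. The Hill curve had a lower Akaike information criterion than a straight line by over 2 for 11 of 14 falling and 28 of 31 rising REs, and DLX1-DLX2_9 and MSX1_5 were the ones better described by the line by over 2.

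**Figure D3:**
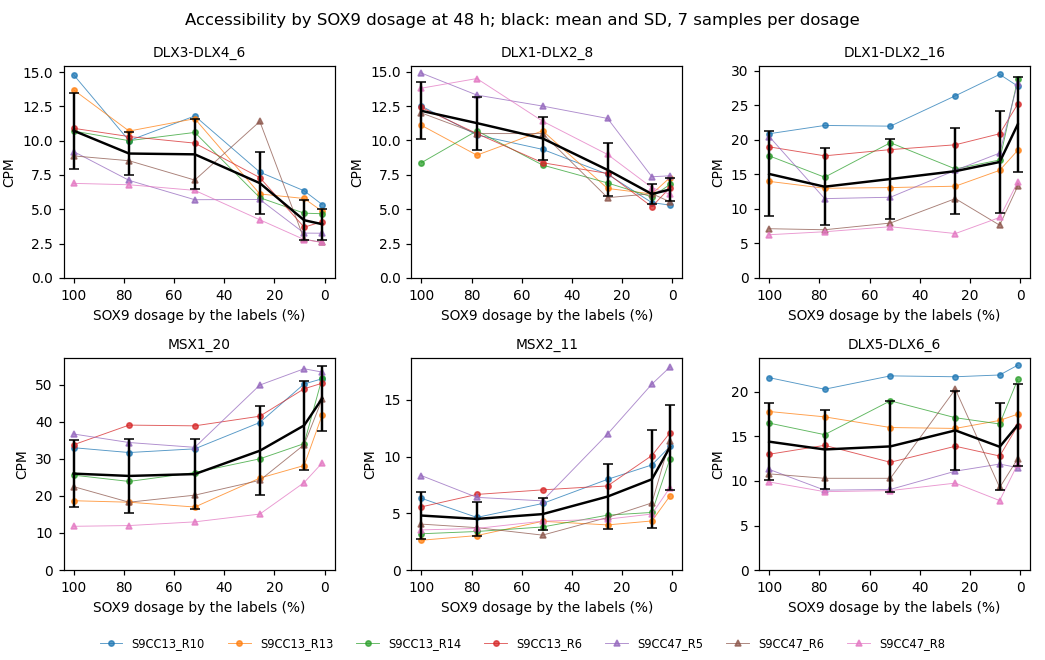
CPM of 6 member REs after 48 h against the SOX9 level given by the labels, falling from left to right; each coloured line is a replicate (circles S9CC13, triangles S9CC47), and black points join the means with SD bars (n = 7 per dosage). The means of DLX3-DLX4_6 and DLX1-DLX2_8 fall most between 51.7 and 8.14% SOX9, those of MSX1_20 and MSX2_11 rise below 51.7%, that of DLX1-DLX2_16 rises mainly below 8.14%, and DLX5-DLX6_6, which was not called, differs more between replicates than between doses.

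**Figure D4:**
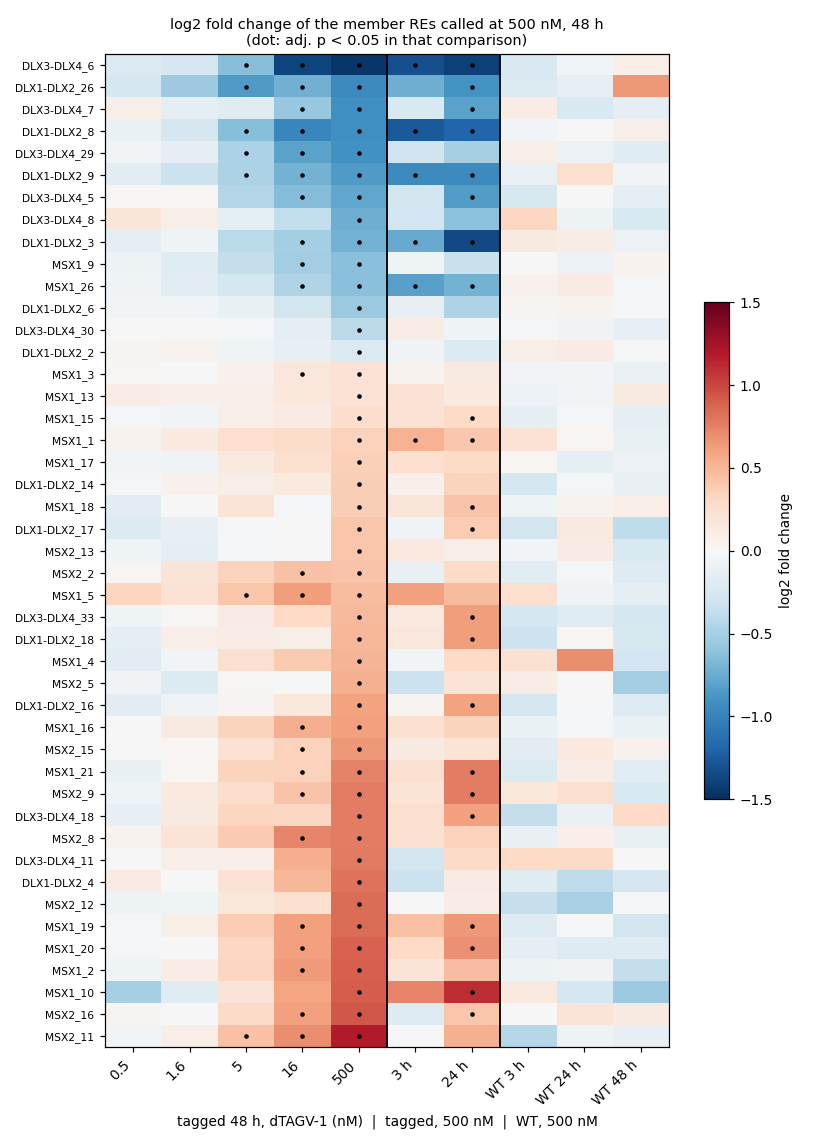
log2 fold change of the 45 member REs called at 500 nM, ordered by that value (rows), in the 5 dose comparisons at 48 h, after 3 and 24 h at 500 nM in tagged cells, and after 3, 24 and 48 h at 500 nM in WT cells (columns); a dot marks an adjusted p under 0.05. No dot falls in the WT columns, and at 3 h 5 of the 14 falling and 1 of the 31 rising REs carry one.

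The time course gave earlier samples of full depletion, with 2 samples per group. The vehicle samples are those of 24 h, so the 3 h samples have no vehicle control of their own duration. After 3 h, 7 members were lower and 1 higher than vehicle in tagged cells, against 7.43 and 0.912% of all REs. The REs with the largest changes were DLX3-DLX4_6, DLX1-DLX2_8, DLX1-DLX2_9, DLX5-DLX6_9 and MSX1_26. DLX3-DLX4_6 was at 9.11 and 10.7 CPM with vehicle, 3.26 and 5.25 after 3 h, and 2.62 and 5.64 after 24 h in tagged cells. In WT cells it was at 8.23 and 13.9 with vehicle, 8.53 and 9.63 after 3 h, and 8.76 and 12.3 after 24 h. Both tagged samples were thus below both vehicle samples by 3 h, with a log2 change of -1.32 ± 0.17 (adjusted p = 2.39e-05), and the WT samples overlapped.

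DLX1-DLX2_8 went from 17.7 and 21.4 CPM to 5.53 and 12.5 after 3 h, a log2 change of -1.26 ± 0.15 (adjusted p = 9.96e-06), and DLX1-DLX2_9 gave -0.96 ± 0.14 at both 3 and 24 h. MSX1_26 was at 7.96 and 4.19 CPM with vehicle and 3.55 and 3.26 after 3 h, a fold change of -0.82 ± 0.20 (adjusted p = 0.0103). DLX5-DLX6_9, in an intron of DLX5, was the one RE of that locus called at 3 h in tagged cells. It went from 5.42 and 7.71 CPM to 2.84 and 4.33 after 3 h and 2.45 and 5.24 after 24 h, with fold changes of -0.95 ± 0.17 and -0.89 ± 0.16 (adjusted p = 0.000617 and 0.000766). In WT cells it also fell, from 4.92 and 7.61 CPM to 3.75 and 6.51 after 3 h. The difference between the tagged and WT responses passed the test at 24 h and not at 3 h. At 48 h this RE gave -0.38 ± 0.12 at 16 nM (adjusted p = 0.0398) and -0.24 ± 0.13 at 500 nM (adjusted p = 0.2). MSX1_24, 38.9 kb past the MSX1 start, likewise fell at 3 and 24 h (-0.40 ± 0.08 and -0.37 ± 0.08) and gave -0.01 ± 0.07 at 48 h and 500 nM. The difference between the 24 and 48 h experiments was not tested. MSX1_1 was the 1 RE that rose at 3 h, by 0.52 ± 0.10 (adjusted p = 0.00197).

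After 24 h, 10 members were lower and 15 higher, against 9.93 and 4.7% of all REs. Of the 31 REs that rose at 48 h, 1 had risen at 3 h and 14 at 24 h, and of the 14 that fell, 5 had fallen at 3 h and 8 at 24 h. Over all REs these shares were 1.61 and 26.2% of the rising and 43.3 and 60.1% of the falling REs. The 14 rising at 24 h included the MSX1 promoter (0.43 ± 0.13, adjusted p = 0.0257), MSX1_19, MSX1_20 and MSX1_21 (0.66 ± 0.14, 0.68 ± 0.10 and 0.77 ± 0.10), MSX2_9 (0.76 ± 0.17), DLX1-DLX2_16 (0.60 ± 0.14) and DLX3-DLX4_18 (0.62 ± 0.20). The one RE that rose at 24 h and not at 48 h was the DLX4 promoter DLX3-DLX4_16, with 0.41 ± 0.13 (adjusted p = 0.0438). In tagged cells 43.7 to 43.9% of counts lay in promoter REs with vehicle and 46.9 to 47.8% after 24 h. In WT cells these shares were 44.1 to 47.2% and 43.0 to 47.2%. Their part in the promoter changes was not tested. MSX1_20 was at 10.7 and 13 CPM with vehicle, 14.1 and 16.2 after 3 h and 18.8 and 20.7 after 24 h. MSX2_11, the largest increase at 48 h, gave 0.54 ± 0.20 at 24 h (adjusted p = 0.0796). At 3 h the count of called members was 4 without the tagged R4 samples, and at 24 h it was 4 without R4 and 15 without R5, in a fit over both genotypes that takes the remaining tagged samples to vary like the WT ones.

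**Figure D5:**
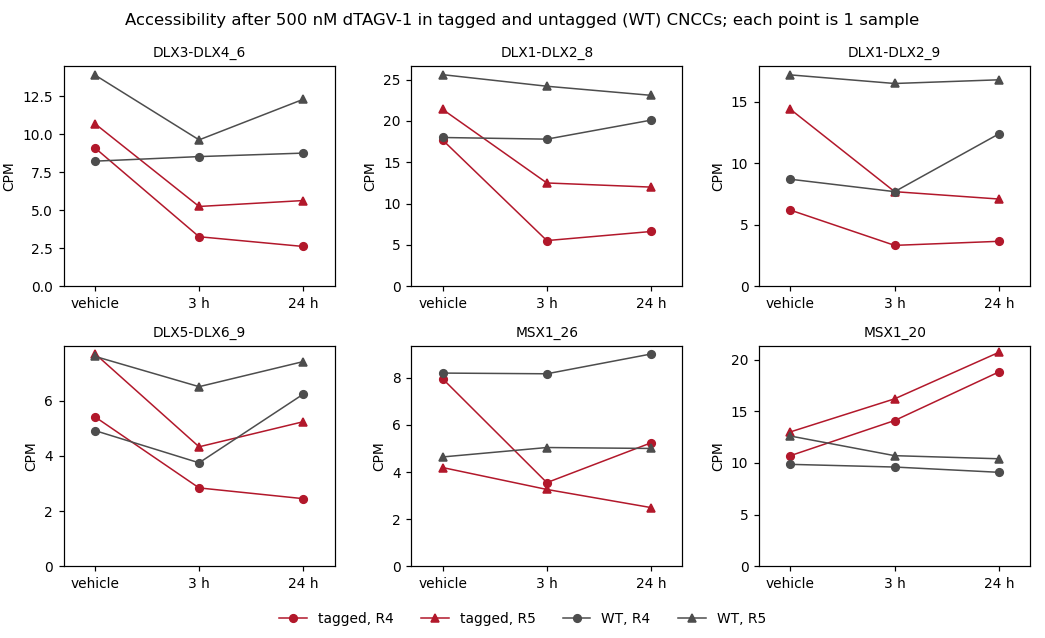
CPM of 6 member REs with vehicle and after 3 and 24 h of 500 nM dTAGV-1 in tagged (red) and WT (grey) CNCCs; each point is 1 sample, circles are differentiation R4 and triangles R5. The red lines of the first 5 REs fall by 3 h, those of MSX1_20 rise through 24 h to 18.8 and 20.7 CPM, and the grey lines show no change of that size in one direction.

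In WT cells, which carry no tag, no member was called after 3, 24 or 48 h of 500 nM. The background in WT was 0% of all REs at 3 h, 0% at 24 h and 0.303% at 48 h, DESeq2 called 0 members in each, and 5, 2 and 13 members had an unadjusted p under 0.05. The response of tagged cells was lower than that of WT cells for 4 members at 3 h and 6 at 24 h, and higher for 0 and 3, against 5.13 and 0.072% of all REs at 3 h and 6.28 and 0.45% at 24 h. At both times the lower ones included DLX3-DLX4_6 (-1.10 ± 0.24 and -1.37 ± 0.24), DLX1-DLX2_8, DLX1-DLX2_9 and MSX1_26. At 24 h DLX1-DLX2_3 and DLX5-DLX6_9 joined them, and the 3 higher ones were MSX1_20 (0.85 ± 0.17, adjusted p = 0.00153), MSX1_21 and DLX3-DLX4_33. Without the tagged R4 samples these counts were 0 at 3 h and 3 at 24 h, and without the WT R5 samples the count at 3 h was 2. In the absence of depletion, tagged and WT cells differed at 1 member, against 0.95% of all REs. This was MSX2_16, higher in tagged cells by 0.54 ± 0.11 on the log2 scale (adjusted p = 0.0181), a call that was lost without differentiation R5 or R8. Between the clones S9CC13 and S9CC47 the 500 nM response differed at no member and at 0% of all REs, with 8 members at an unadjusted p under 0.05 and none called by DESeq2, and 1 member was called without S9CC47_R5.

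A list of 30 pharyngeal arch genes that act upstream of, downstream of or beside MSX and DLX genes (among them EDN1, HAND2, BMP4, BMP7, ID1, JAG1, NOTCH2 and ALX4) gave 637 REs by the same rule, none of them a member. At 500 nM 98 of these were lower and 73 higher, or 15.4 and 11.5%, near the 13.9 and 10.2% of all REs. Their median log2 fold change was 0.013. The genes named singly here were picked for description. REs of the BMP target genes ID1 and ID2, whose products block basic helix-loop-helix factors, were higher at 9 of 29 and 7 of 25, and lower at 3 and 4, whereas the third ID gene of the list, ID3, had 5 of 35 higher and 7 lower, with a median of -0.013. Around HAND1 and HAND2, basic helix-loop-helix factors of the ventral arch, 5 of 21 and 4 of 15 REs were higher and none lower. The ligand gene BMP7 went the other way, with 22 of 49 REs lower and 4 higher, and a median of -0.258. Around EDN1, the endothelin ligand, 1 of 12 was higher and none lower. Other genes of the list moved as much. NKX3-2 had 4 of 14 REs higher and 0 lower, JAG1 6 of 23 and 1, and EDNRA 5 of 22 and 1. SMAD5 had 9 of 26 lower and 1 higher.

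The members' sequences were searched on both strands for SOX cores, homeodomain cores (TAATTA or TAATTG), the E-box CAGATG, the TFAP2 site GCCNNNGGC and SOX pairs, taken as ACAAT facing ATTGT with 0 to 10 bases between. Of the 99 members of 501 bp, 38.4% held a SOX core, against 46.9% of all REs of this length. Among the 11 that fell at 500 nM it was 6, or 54.5%, and among the 26 that rose 9, or 34.6%, where the values over all REs of this length were 61.0% of those that fell and 45.3% of those that rose. Homeodomain cores stood in 11 of the 26 rising members (42.3%), in 28.5% of all REs and in 41.6% of all that rose. A TFAP2 site stood in 14 of 26 (53.8%), in 32.3% of the 99 members, in 23.1% of all REs and in 21.2% of all that rose. CAGATG stood in 5 of 26 (19.2%), in 28.3% of the 99 members, in 42.1% of all REs and in 42.6% of all that rose. The median G and C content was 57.7% in the rising members, 51.3% in the falling, 47.5% over all REs of the length and 44.1% over all that rose, and its part in these shares was not tested. None of the 501 bp members that fell or rose held a SOX pair, which 0.593% of all REs of this length held. A match to these letters is no evidence of binding.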

How the data were processed

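ATAC-seq was analysed in 58 CNCC samples. Per the labels, the authors used Bowtie2 2.4.1, SAMtools 1.10, deepTools 3.5.0, MACS2 2.2.7.1 and bedtools on hg38, and deposited raw read counts per RE, with libraries of 22905782 to 81040023 counts. The authors removed PCR duplicates and reads of low mapping quality and merged peak summits across samples, so each RE has the same borders in every library and repeats are under-counted. Low counts carry the larger error. REs were matched to GENCODE v44 and sequences read from hg38. The deposited counts of all 151457 REs were tested with edgeR 4.0.16 (R 4.3.3, quasi-likelihood test, TMM, no filter, differentiation as covariate, Benjamini-Hochberg adjustment over all REs, threshold 0.05). The fit was tested on simulated independent counts with a fixed spread and no differentiation effect. That run does not cover the correlation between samples of a replicate. CPM was logged with a pseudocount of 0.1. The REs named by rule were the most accessible RE at each gene's starts, the largest called decrease and increase at 500 nM and the most accessible RE of each locus, the 5 largest called changes at 3 h, and the REs between paired genes. Members and lists were chosen with earlier results of these data known.

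Samples were grouped by title, which was also used where labels disagreed, for the 0 and 0.5 nM samples of S9CC13_R14 and for the clone of the tagged R5 time course, which the count table names S9CC47. Samples of the same replicate, such as S9CC13_R6, share clone and differentiation, whereas differentiation R6 holds both clones. The deviations of a replicate's samples from the group means correlated in every pair (lowest r 0.17). Values with replicates as blocks are thus given where they change a call at 500, 16 or 1.6 nM, and counts and names at 5 nM. The reduced chi-square between libraries was at least 1.88 in each of the 1653 pairs, so none was taken for a duplicate. All samples derive from 1 cell line, and p-values measure the spread between samples that remains after the differentiation or replicate term of the fit. The alternatives were DESeq2 1.42.0, RLE normalization, a filter at 1 CPM in 2 samples, a replicate block, no differentiation term, a window of 50000 bp, CPM or log2 scales for dose curves and leaving out each replicate. The values of 2 marker genes are not reported here.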

Additional observations from a re-analysis of the deposited data

Results flagged for a closer look

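Among 186 groups of 7 samples examined (31 REs at 6 doses), 7 held a sample set far apart from the rest, by Dixon's test, which chance alone does in about 1 of 20 groups. Replicate S9CC13_R10 was that sample 5 times. Its MSX1 promoter RE (MSX1_18) was at 37.5 CPM at 500 nM, against a median of 17.0 in the others, MSX1_26 at 3.17 against 5.50 CPM at 0.5 nM and at 2.29 against 3.90 at 500 nM, DLX1-DLX2_17 at 31.2 against 15.3 at 5 nM, and DLX3-DLX4_21 at 3.82 against 2.69 at 16 nM. This replicate had the highest share of counts in promoter REs at every dose, and the part of that share in these values was not tested. The other samples set apart were S9CC13_R14 at MSX1_10 (2.69 CPM at 500 nM, against 1.34) and S9CC47_R5 at DLX1-DLX2_4 (1.41 CPM at 0.5 nM, against 0.715).

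The response to 500 nM differed between tagged and WT cells, by the interaction test of edgeR, at 4 members after 3 h and at 9 after 24 h. Among the REs named by rule, the difference (tagged minus WT, log2) at DLX3-DLX4_6 was -1.10 at 3 h and -1.37 at 24 h (adjusted p = 0.00543 and 0.000383). At DLX1-DLX2_8 it was -1.24 and -1.22 (adjusted p = 0.000516 and 0.000428), and at DLX1-DLX2_9 -0.87 and -1.23 (adjusted p = 0.0175 and 0.000455). MSX1_26 gave -0.89 and -0.86 (adjusted p = 0.0452 and 0.0414), and DLX5-DLX6_9 gave -1.07 at 24 h (adjusted p = 0.00525).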

How the results depend on the processing

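The differentiation term carried most of the dose and time calls. With no replicate block and no differentiation term, 19 members were called at 500 nM, 6 at 16 nM, and 0 at 5 nM, at 3 h, at 24 h, in both genotype differences and between tagged and WT cells. With the replicate block, in place of differentiation, the counts were 49 (500 nM), 38 (16 nM), 16 (5 nM) and 2 (1.6 nM), and all calls of the first fit were kept. Within 50000 bp of a start lay 79 of the 121 members. The counts among these were 25 at 500 nM, 11 at 16 nM, 3 at 5 nM, 4 at 3 h and 16 at 24 h. Of all 121 members 37.2, 21.5, 5.79, 6.61 and 20.7% were called in these comparisons. Leaving out 1 replicate gave 39 to 48 members at 500 nM, 18 to 35 at 16 nM, 2 to 21 at 5 nM, 0 at 1.6 nM in each case and 0 to 2 at 0.5 nM, 4 to 7 at 3 h and 4 to 15 at 24 h, 0 to 3 and 3 to 9 for the genotype differences at 3 and 24 h, 0 to 1 between tagged and WT cells and 0 to 1 between clones. RLE normalization and the CPM filter kept all 45 calls at 500 nM. Of 372 values for named REs under an alternative, 345 kept direction and call, 18 lost the call, 5 gained it and 4 turned sign, all in REs not called (DLX3-DLX4_22, -0.032 to 0.088 over left-out replicates, with -0.019 as the other negative value, and DLX3-DLX4_20, -0.044 to 0.056, with -0.010). The median ED50 was 8.6 to 12.5% SOX9 for rising and 24.0 to 28.6% for falling REs when 1 replicate was left out, and 11.2 and 23.4% on the log2 scale. Time-course and WT comparisons rest on 2 samples a group, and REs near 1 CPM carry the largest errors.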

Other observations

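The closest REs outside the windows were read for comparison, without a rule on their values. To the left of the DLX3/DLX4 window an RE at 102.6 kb had a log2 fold change of -0.481 at 500 nM (adjusted p = 0.00197 by edgeR), and to the left of the DLX5/DLX6 window one at 101.4 kb had -0.782 (adjusted p = 0.000509). The nearest REs outside the MSX2 window, at 105.9 and 119.6 kb, had 0.039 and -0.218 (adjusted p = 0.839 and 0.0919). To the right of the MSX1 window an RE at 126.3 kb had 0.496 (adjusted p = 0.0779), and to its left the one at 104.2 kb had 0.08 (adjusted p = 0.626). Those on both sides of DLX1/DLX2 and to the right of the other DLX windows lay between -0.015 and 0.205 and did not pass.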
